A study of Homo sapiens with 9 samples.

Results

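Gene expression with high and with no Myc expression was compared in P493-6 cells, an established human line of B lymphocytes. The samples were chosen by their labels alone, 4 arrays of high Myc and 2 of no Myc, which are 6 of the 9 arrays of the series. The 3 arrays of low Myc were left out of this fit. All 6 arrays share the cell line and the cell type, and the labels separate them by 1 property, Myc expression. As background, the line is known to carry a MYC transgene under tetracycline control and an estrogen-dependent EBNA2, a regulator of Epstein-Barr virus, but the labels name no agent, dose, time or culture for any group. Nothing shows that replicates came from separate cultures, so the p-values reflect the spread from array to array alone, which could be technical, and all values come from 1 cell line.

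MYC is a transcription factor that binds DNA with its partner MAX, mostly at E-box sequences close to gene starts. It is known for raising the genes that cells need to grow, those of ribosome production, metabolism and DNA synthesis, and its gene is translocated in Burkitt lymphoma. In B lymphocytes its level rises on activation, while resting and differentiating B cells hold little of it.

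MYC itself separated the groups, but not evenly. Its intensity, the RMA summary of a probe set's brightness on a linear scale, was 12755, 11326, 15404 and 12186 on the arrays of high Myc replicates 1 to 4, here high Myc 1 to 4, and 2803 and 416 on those of no Myc replicates 1 and 2, here no Myc 1 and no Myc 2. The groups did not overlap, yet no Myc 1 was far above no Myc 2, a level that goes against its label, so it is called the library labelled no Myc 1 throughout. Intensities are given below in this order, high Myc 1 to 4 against no Myc 1 and 2. MYC (Entrez gene 4609) was 3.57 ± 0.66 higher in high Myc (limma, Benjamini-Hochberg adjusted p = 0.00771). Here and below, a value with ± is the log2 difference, high minus no Myc, with its standard error. The difference was 4.95 without that library and 2.19 without no Myc 2. JAG2, a Notch ligand, read 1205, 972, 1115 and 1223 with high Myc and 255 and 185 with no Myc, and rose by 2.37 ± 0.16 (adjusted p = 0.000163). MAX differed by -0.08 ± 0.14 (adjusted p = 0.783).

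The 6 arrays were close in their technical measures, but some of these measures separated the groups. Median intensities were 76.0 to 80.3, and correlations of log2 values over the 19775 genes were 0.977 to 0.992 within the groups and 0.919 to 0.950 between them. The 3' signal of GAPDH exceeded the 5' signal by 0.25 and 0.42 (log2) on the no Myc arrays and by 0.03 to 0.24 on the high Myc arrays, and for ACTB the excess was 0.00 and -0.01 against -0.05 to 0.19. The part of RNA quality in the differences below was not tested. At least 11 of 13 measured B-cell markers were above a log2 of 8 on each array, as the label says. Their summed intensity was 33886 to 43575 with high Myc and 69761 to 82771 with no Myc, and 9 of 13 fell (median log2 difference -1.02), a count of 3 with the library labelled no Myc 1 left out and 5 with no Myc 2 left out. The sums of T and NK cell markers were 1630 to 2000 and 1830 to 2115. Sums of myeloid markers were 672 to 754 and 1960 to 2809, and without LYZ and ITGAM, which fell, they were 504 to 555 and 554 to 558. In these bulk samples fewer cells of a type and less RNA per cell cannot be told apart. RMA gives all arrays a common distribution, so a difference says how a gene stood against the rest of its array, and a change in total RNA per cell is out of view.

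High Myc and no Myc cells differed across a large part of the transcriptome. Of 19775 genes, 4800 (24.3%) passed at an adjusted p under 0.05, 2996 of them higher (15.2%) and 1804 lower (9.12%) with high Myc. When quantile normalization was repeated on the values of the 19775 genes alone, the split was more even, 2618 higher and 2378 lower. The share of higher genes was then 52.4% in place of 62.4%. Normalization of all deposited probe sets was not repeated, so its effect on the split was not tested. The median difference over all genes was -0.01. At least 2-fold higher were 1504 genes (7.61%), and at least 2-fold lower were 719 (3.64%). At least 8-fold higher were 33 genes and at least 8-fold lower 26. The values of the 2 groups did not overlap in any of the 4800 called genes, and across all genes this held for 38.4%.

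The rises were steadier than the falls. Every fit that left out 1 array called 1790 of the 2996 higher genes (59.7%) and 739 of the 1804 lower genes (41.0%). Without the library labelled no Myc 1, 2051 genes were higher and 891 lower (10.4% and 4.51% of all), and without no Myc 2 these counts were 2238 and 1307 (11.3% and 6.61%). Among the lower genes that library was above no Myc 2 in 1263 of 1804 cases (70.0%), by a median of 0.14 on the log2 scale, and among the higher genes in 1274 of 2996 (42.5%, median -0.06). Its part in the difference in steadiness was not tested.

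**Figure D1:**
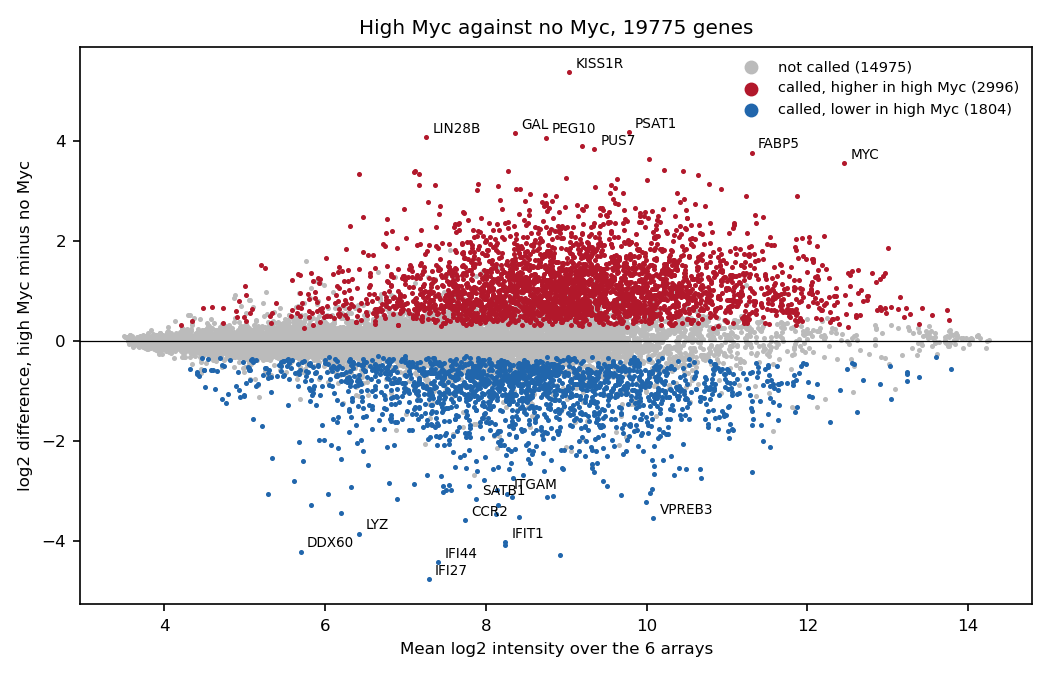
Difference between high and no Myc (log2, vertical axis) against the mean log2 intensity over the 6 arrays (horizontal axis) for 19775 genes. Points are genes, coloured by the call at an adjusted p under 0.05: 2996 higher, 1804 lower and 14975 not called. KISS1R stands highest at 5.38 and IFI27 lowest at -4.75.

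The 25 largest rises had log2 differences of 3.12 to 5.38, and all 25 were called in every fit that left out 1 array. KISS1R, the receptor of kisspeptin, led them with 1648, 1490.3, 2148 and 2096 on the high Myc arrays and 52.0 and 36.8 on the no Myc arrays. GAL, the neuropeptide galanin, read 482, 1074, 1340.1 and 788 against 44.1 and 51.4, and NPW, neuropeptide W, 169, 194, 165 and 219 against 16.9 and 19.4. Both peptides were high on every high Myc array and at the low end of the scale on the no Myc arrays. NEFH, a neurofilament subunit, rose by 3.65 ± 0.24, and ADGRA3, an adhesion G protein-coupled receptor, by 3.38 ± 0.10. KIF21A, a kinesin motor, rose by 3.35 ± 0.35. Other, dimmer probe sets differed by 0.28 for GAL, 0.49 for KIF21A, and 0.63 and 0.47 for ADGRA3.

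Genes of amino acid metabolism and transport were among the 25. BCAT1, which transaminates branched-chain amino acids in the cytosol, read 3616, 3360.3, 3360.3 and 3445 with high Myc and 352 and 339 with no Myc, or 9.97-fold (adjusted p = 5.75e-05). SLC7A5, the light chain of a transporter of large neutral amino acids, read 2209.7, 2969, 3031 and 2329 against 249.6 and 239. PSAT1, an enzyme of serine synthesis, read 1719, 3725, 2473 and 1798 against 97.3 and 165 and rose 18.3-fold. GCSH, the lipoyl carrier protein of the glycine cleavage system, rose 10.6-fold. Each of these genes was several times higher on the lowest high Myc array than on the highest no Myc array. HPDL, a mitochondrial enzyme that acts on hydroxyphenylpyruvate-like substrates, rose by 3.40 ± 0.24.

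The 25 also held genes known for RNA binding and for proteasome assembly. PUS7, a pseudouridine synthase, read 1571, 1359, 1890.2 and 1567 with high Myc and 97.9 and 124 with no Myc. LIN28B, which binds and blocks maturation of let-7 family microRNAs, rose by 4.09 ± 0.23, and YBX3, a cold-shock domain RNA-binding protein, by 3.15 ± 0.12. GEMIN5, which binds snRNA in the SMN complex, rose by 3.13 ± 0.14, and LYAR, a nucleolar protein, by 3.24 ± 0.40. PSMG1, a proteasome assembly chaperone, rose 9.42-fold, MND1, a meiotic recombination factor, 8.83-fold, and FAM241A 8.69-fold. POLR3G, a subunit of RNA polymerase III, rose by 3.40 ± 0.38, and LEF1, a transcription factor of the Wnt pathway and of early lymphocytes, by 3.26 ± 0.28. LEF1 read 1255, 703, 1336 and 1168 against 94.8 and 134, with high Myc 2 the lowest of its group. POLR3G and LEF1 differed by 1.23 and 0.41 when a gene was the median of its probe sets and no longer passed (adjusted p = 0.0769 and 0.171). The other probe sets of both genes pointed upward too. A second, dimmer probe set of FAM241A differed by 0.08. LIN28B, POLR3G, ADGRA3, NPW and KIF21A were read at a mean log2 under 5 with no Myc, so that their folds and ranks are not exact.

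**Figure D2:**
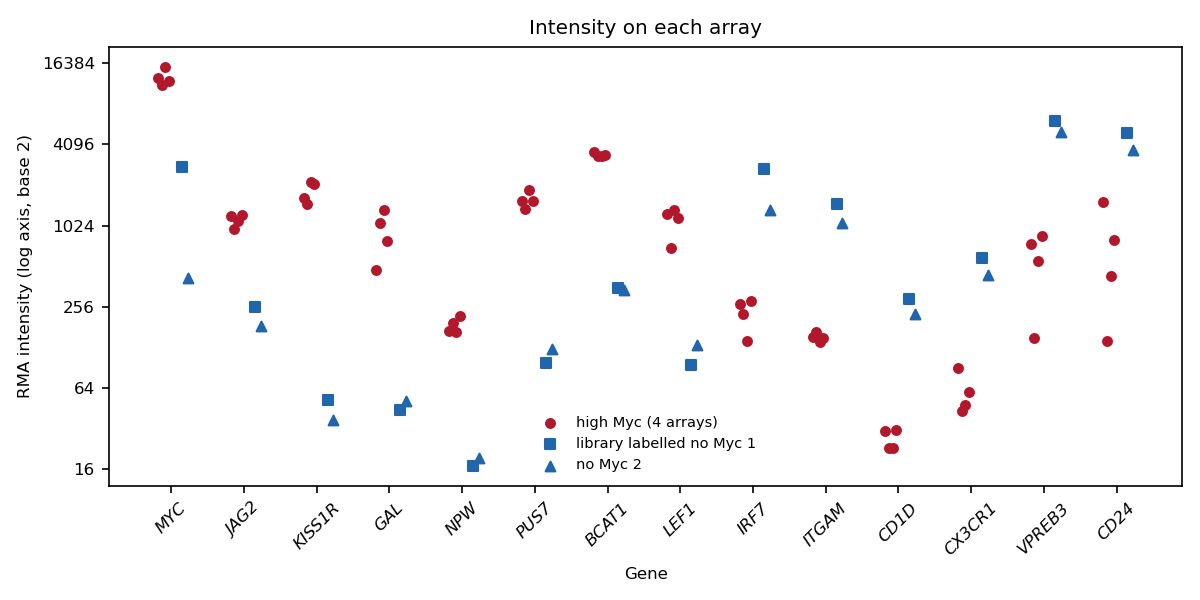
RMA intensity on each array (vertical axis, log base 2) for MYC, JAG2 and 12 further genes. Circles are the 4 high Myc arrays, the square is the library labelled no Myc 1 and the triangle no Myc 2. The groups are apart for every gene drawn, as in every called gene. MYC of the square lies between the circles and the triangle.

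The 25 largest falls included genes known as interferon-induced and genes of immune cells. Their differences ran from -4.75 to -3.03, 17 of the 25 were called in every fit that left out 1 array, and all 25 were higher on the library labelled no Myc 1 than on no Myc 2. IFI44, an interferon-induced gene, read 65.9, 56.1, 46.0 and 81.7 with high Myc and 2187 and 779 with no Myc. IRF7, the regulator that amplifies type I interferon production, read 267, 226, 142 and 284 against 2712 and 1343, or 8.58-fold lower (adjusted p = 0.00112). XAF1, an interferon-induced cofactor of apoptosis, was 10.9-fold lower. The 25 were picked among genes whose groups do not overlap, so a gap between the groups was fixed in advance for these genes. SLFN5 (-3.12 ± 0.19), EPSTI1 (-3.07 ± 0.21), GBP3 (-3.06 ± 0.17) and CMPK2 (-3.05 ± 0.46), all known as interferon-induced, were also lower.

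Several surface molecules were among the other large falls. ITGAM, the alpha chain of the complement receptor Mac-1, read 154, 168, 139 and 149.7 with high Myc and 1480.3 and 1069 with no Myc. CD1D, which presents lipids to NKT cells, read 30.4, 22.9, 23.0 and 31.2 against 292 and 228. CX3CR1, the fractalkine receptor, fell by 3.15 ± 0.30. The spread among replicates was small beside these gaps. A second, dimmer probe set differed by -0.10 for ITGAM and by -0.28 for CX3CR1. SATB1, a chromatin organiser of lymphocytes, was 8.88-fold lower and MTSS1, an actin- and membrane-binding protein, 9.71-fold lower. CD24, a sialoglycoprotein of early B cells, read 1532, 142, 435 and 803 with high Myc and 4949 and 3733 with no Myc, a range of over 10-fold within high Myc. VPREB3 was also scattered, at 746, 149, 556 and 853 against 6131 and 5063, and in both genes high Myc 2 was the lowest array. CD72, an inhibitory receptor, fell by 3.52 ± 0.63, GAPT, an adaptor of B-cell activation, by 3.12 ± 0.76, C16orf54 by 3.43 ± 0.77 and TBC1D9 by 3.22 ± 0.55. VPREB3 and CD72 were not called when the library labelled no Myc 1 or no Myc 2 was left out (adjusted p of up to 0.0871). CD24 and GAPT were not called when high Myc 3, high Myc 4, the library labelled no Myc 1 or no Myc 2 was left out (adjusted p of up to 0.236). C16orf54 was not called when high Myc 3, the library labelled no Myc 1 or no Myc 2 was left out (adjusted p of up to 0.165). TBC1D9 was not called when the library labelled no Myc 1 was left out (adjusted p of up to 0.0667). MTSS1 differed by -0.38 when a gene was the median of its probe sets and no longer passed (adjusted p = 0.0894). CD24 differed by -3.03 with a trended and robust prior and no longer passed (adjusted p = 0.0656). DDX60, CD1D and CMPK2 were read at a mean log2 under 5 with high Myc, so their folds are not exact.

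Promoters of some genes that changed hold the E-box bound by MYC or the interferon response element, and examples are printed to show these letters. Windows from 250 bases before to 50 after each gene start were taken from RefSeq (build GRCh38.p14), and 60 bases around a match are printed, 5' to 3' on the strand of the gene. The following 6 genes rose and hold the E-box CACGTG, in capitals, upstream of their start. They were picked for the match, as a transporter and members of the methylation, polymerase, processome and import lists, each with 1 window in the table.
SLC7A5 (chr16:87869605-87869664, minus strand): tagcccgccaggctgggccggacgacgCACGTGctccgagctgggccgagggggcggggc
PRMT3 (chr11:20387502-20387561, plus strand): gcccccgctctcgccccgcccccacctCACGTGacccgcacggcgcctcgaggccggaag
SRM (chr1:11060185-11060244, minus strand): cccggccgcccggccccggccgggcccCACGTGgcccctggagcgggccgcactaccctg
POLR1G (chr19:45406584-45406643, plus strand): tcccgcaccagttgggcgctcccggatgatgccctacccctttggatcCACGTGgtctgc
UTP4 (chr16:69132589-69132648, plus strand): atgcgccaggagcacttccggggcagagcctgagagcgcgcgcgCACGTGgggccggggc
TOMM20 (chr1:235128973-235129032, minus strand): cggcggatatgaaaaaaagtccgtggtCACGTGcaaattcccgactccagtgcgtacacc
In SLC7A5 the match starts 130 bases upstream of the start, in POLR1G 12 and in UTP4 16.

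Among the genes that fell, 4 interferon-induced genes show the interferon response element, GAAA, any 2 bases and GAAA on either strand, in capitals.
IFI44L (chr1:78620350-78620409, plus strand): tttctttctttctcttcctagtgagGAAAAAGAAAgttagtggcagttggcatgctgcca
DDX60 (chr4:168318771-168318830, minus strand): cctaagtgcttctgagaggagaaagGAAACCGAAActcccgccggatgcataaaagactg
IFIT1 (chr10:89392495-89392554, plus strand): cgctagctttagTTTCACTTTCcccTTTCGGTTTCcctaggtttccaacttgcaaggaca
EPSTI1 (chr13:42992257-42992316, minus strand): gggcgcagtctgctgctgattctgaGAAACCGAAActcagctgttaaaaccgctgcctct
IFIT1 holds 2 matches, 103 and 116 bases upstream of the start, both read from the opposite strand. IFI44L fell by 4.29 ± 0.85 and IFIT1 by 4.02 ± 0.63. IFI44L was not called when the library labelled no Myc 1 was left out (adjusted p of up to 0.115).

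Over all called genes the motifs were not spread alike. Of the called genes, 2530 higher (84.5%) and 1463 lower (81.1%) had at least 1 window. The E-box was in 12.6% of 3442 windows of higher genes, 7.24% of 2307 windows of lower genes and 7.26% of all 35116 windows of the table. The interferon response element was in 2.30%, 5.81% and 3.57% in the same order. An E-box was thus more frequent in windows of higher genes, and an interferon response element in windows of lower genes, than over the table. The windows of the table were not limited to the genes tested here. The E2F site TTTCCCGC was in 3.43%, 1.86% and 1.63%, the NRF1 site (GCGCA followed by TGCGC) in 2.67%, 1.52% and 1.24%, and the CCAAT box CCAAT in 38.0%, 33.6% and 34.6%. Windows of higher genes were also richest in G and C, with a median of 65.3% against 62.7% and 58.7%, and the part of base composition in these shares was not tested. Among the 25 largest rises, 5 of the 18 genes with a window held an E-box and 0 an interferon response element. Among the 25 largest falls these numbers were 0 and 8 of 19. Here a gene counted if any of its windows matched, so these counts per gene cannot be set against the shares per window. All motifs were searched on both strands, and a match is a description of letters, not of binding.

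**Figure D3:**
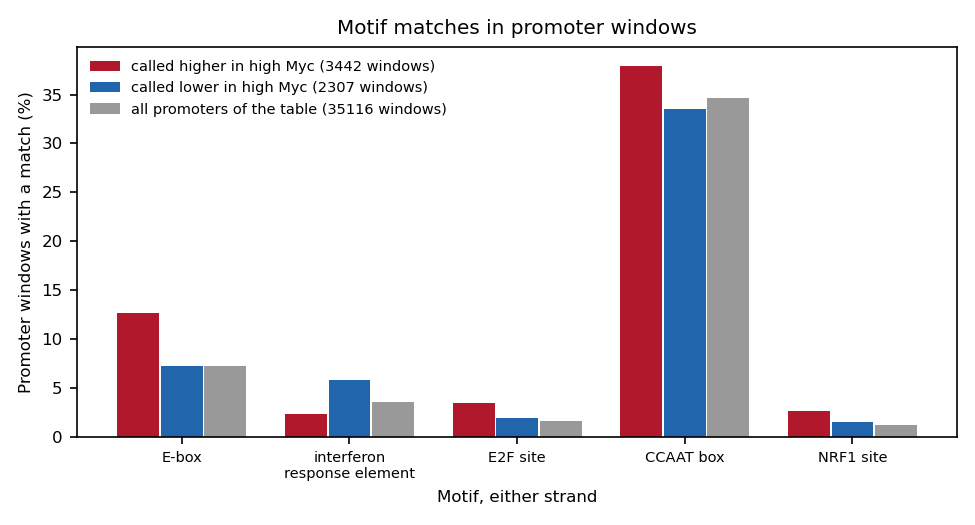
Share of promoter windows with a match (vertical axis, %) for 5 motifs, in windows of genes called higher (3442), called lower (2307) and in all windows of the table (35116). The E-box stands at 12.6% in higher genes against 7.26% over the table, and the interferon response element at 5.81% in lower genes against 3.57%.

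Nearly all measured genes of the small-subunit processome rose. Ribosome production starts with RNA polymerase I, whose transcript is cut, modified and folded by the small-subunit processome, by snoRNA-guided enzymes and by large-subunit assembly factors. Of 46 measured processome genes, 44 rose and 0 fell, with a median log2 difference of 1.47. TSR1 (2.51 ± 0.22), WDR3 (2.39 ± 0.17), UTP15 (2.28 ± 0.20) and BYSL (2.17 ± 0.11) were among them. Of 44 large-subunit assembly genes, 37 rose, with a median of 1.23. NOP16 read 2342, 2754, 3252 and 2635 with high Myc and 320.2 and 445 with no Myc, and RRP1B 2630.4, 2580.0, 2941 and 2295 against 370.0 and 382. For both, the lowest high Myc array was over 4-fold above the highest no Myc array. WDR12, of the PeBoW complex, rose by 2.59 ± 0.16 and MRTO4 by 2.53 ± 0.20.

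The enzymes guided by small nucleolar RNAs rose too. Of 17 measured proteins of box C/D and H/ACA particles and their assembly, 14 rose and 0 fell, with a median of 1.64. FBL, the methyltransferase of box C/D particles, read 6556, 6427, 6854 and 6995 with high Myc and 1294 and 1940.2 with no Myc. GAR1 and NAF1 of H/ACA particles rose by 2.40 ± 0.17 and 2.56 ± 0.18, and the ATPases RUVBL1 and RUVBL2, which help assemble them, by 2.24 ± 0.15 and 1.94 ± 0.19.

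Subunits of the polymerases rose too, and a pair of paralogs in RNA polymerase III went in opposite directions. In the list of RNA polymerases I and III, 24 of 36 genes rose and 1 fell, with a median of 0.74. POLR1B, the second largest subunit of polymerase I, read 1068, 1508, 1708 and 1149 with high Myc and 149 and 167 with no Myc. POLR1G and POLR1F, of the same enzyme, rose by 2.68 ± 0.12 and 2.18 ± 0.20. The gene that fell was POLR3GL, the paralog that takes the place of POLR3G in polymerase III. POLR3GL read 254, 255, 235 and 251 against 500.2 and 516 (-1.03 ± 0.08, adjusted p = 0.000303), while POLR3G read 238, 355, 431 and 238 against 19.3 and 43.1. Every high Myc array was below both no Myc arrays for POLR3GL and above both for POLR3G. The same lack of overlap held for every called gene.

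Genes of RNA processing and nuclear transport rose. tRNA modification had 31 of 47 genes higher and 1 lower (median 0.72). Besides PUS7 these included WDR4, partner of the tRNA guanosine methyltransferase METTL1 (2.62 ± 0.13), TRMT10C, a subunit of mitochondrial RNase P (1.94 ± 0.10), and FTSJ1, a tRNA ribose methyltransferase (1.89 ± 0.10). DUS2, which makes dihydrouridine in tRNA, was the gene that fell (-0.75 ± 0.10), while DUS3L of the same family rose by 1.85 ± 0.19. Among snRNP and Sm proteins 35 of 47 rose (median 0.89), with SNRPF at 1.81 ± 0.16 and SNRPD1 at 1.59 ± 0.11, and 1, SNRNP35, fell (-0.41 ± 0.12). Of the hnRNP and SR splicing proteins 21 of 30 rose and 0 fell, among them HNRNPAB (1.99 ± 0.13), SYNCRIP (1.96 ± 0.26) and SRSF1 (1.07 ± 0.12). Nuclear pore and transport genes rose in 37 of 51 cases with 0 lower. The importin IPO5 read 2561, 2631, 2631 and 2409 against 408 and 530.2, XPOT, which exports tRNA, 1851, 2048, 2045 and 1648 against 389.6 and 368, and CSE1L, which recycles importin alpha, rose by 2.17 ± 0.11. SNRNP35 was not called when any single array was left out (adjusted p of up to 0.222). SNRNP35 differed by -0.41 with a trended and robust prior and no longer passed (adjusted p = 0.0701). SNRNP35 differed by -0.38 with array weights and no longer passed (adjusted p = 0.0608).

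RNA decay genes changed in both directions. In that list 16 of 31 genes rose and 4 fell, with a median of 0.55. These were 51.6% and 12.9%, beside 15.2% and 9.12% of all genes. The leading rises were exosome subunits, EXOSC2 (1.79 ± 0.10), EXOSC8 (1.78 ± 0.17), EXOSC5 (1.67 ± 0.11) and EXOSC3 (1.53 ± 0.15). XRN1, the cytoplasmic exonuclease that degrades from the 5' end, fell from 629.9 and 455 with no Myc to 257, 243, 271 and 257 with high Myc. PAN2, of a deadenylase, fell by 0.92 ± 0.14. The number that rose was 10 with the library labelled no Myc 1 left out and 9 with no Myc 2 left out, and the number that fell was 2 with the library labelled no Myc 1 left out and 2 with no Myc 2 left out.

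Mitochondrial genes rose from import to the citric acid cycle. Protein import had 26 of 30 genes higher and 0 lower (median 1.32). TIMM13, a chaperone of the intermembrane space, read 1736, 1741, 1839.6 and 1677 with high Myc and 293 and 298 with no Myc. GRPEL1, nucleotide exchange factor of the matrix chaperone, read 1526, 1829, 1781 and 1554 against 308 and 329. Replicates of these genes were within 1.5-fold of each other. TIMM50 rose by 2.22 ± 0.15, CHCHD4, the oxidoreductase of the intermembrane space, by 2.06 ± 0.13 and the receptor TOMM20 by 1.91 ± 0.12.

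Maintenance and reading of mitochondrial DNA rose with it, in 31 of 37 genes (median 1.34). TFAM, which packs mitochondrial DNA, read 1435, 1574, 1828 and 1336 with high Myc and 427 and 282 with no Myc, and TWNK, the replicative helicase, 631, 616, 842 and 673 against 137 and 153. The coactivator PPRC1 rose by 2.24 ± 0.11. Mitochondrial tRNA synthetases and translation factors rose in 20 of 27 cases, with TUFM, an elongation factor, at 1.89 ± 0.09 and MARS2 at 2.17 ± 0.11. MTIF3, an initiation factor, was the 1 gene that fell (-0.43 ± 0.10). MTIF3 was not called when high Myc 3 or no Myc 2 was left out (adjusted p of up to 0.116). MTIF3 differed by -0.10 when a gene was the median of its probe sets and no longer passed (adjusted p = 0.515).

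In the citric acid cycle and pyruvate list 23 of 34 genes rose and 0 fell (median 0.87). DLAT and PDHA1, of pyruvate dehydrogenase, rose by 1.99 ± 0.18 and 1.71 ± 0.15, and GOT2, the mitochondrial aspartate aminotransferase, by 1.75 ± 0.12. Of the mitochondrial carriers, 15 of 33 rose and 1 fell. SLC25A33, a pyrimidine nucleotide carrier, read 762, 1005, 866 and 705 against 199 and 149, and SLC25A32, known for folate transport, rose by 1.65 ± 0.18. SLC25A20, the carnitine carrier of fatty acid oxidation, fell by 0.63 ± 0.13. The carriers that rose were 8 with the library labelled no Myc 1 left out. SLC25A20 was not called when the library labelled no Myc 1 or no Myc 2 was left out (adjusted p of up to 0.104). In iron and heme metabolism 19 of 36 rose and 2 fell, with ISCA1, of iron-sulfur assembly, at 2.70 ± 0.17, ABCB10, a mitochondrial transporter, at 2.05 ± 0.25, and ALAD, the second enzyme of heme synthesis, at -1.21 ± 0.14.

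**Figure D4:**
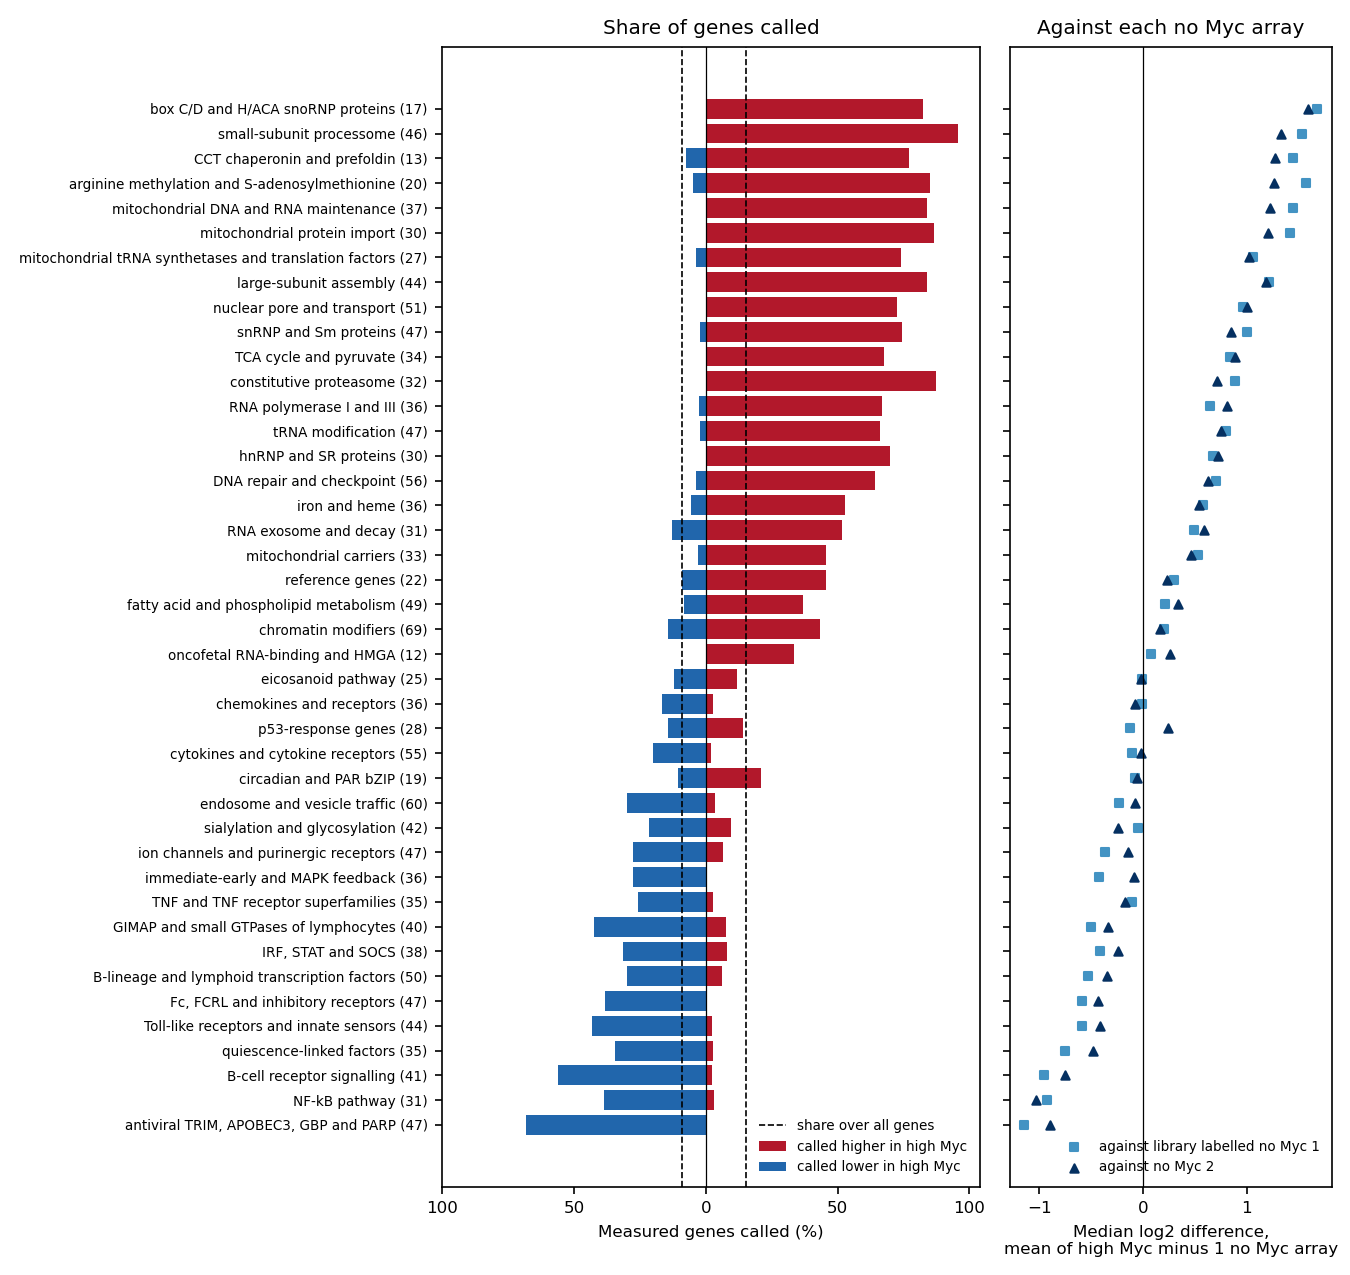
Left, share of measured genes called higher (to the right) and lower (to the left) with high Myc (horizontal axis, %) in 42 lists, with the number of measured genes in parentheses; dashed lines mark the shares over all genes, 15.2% and 9.12%. Right, each list's median log2 difference between the mean of high Myc and each no Myc array (square, the library labelled no Myc 1; triangle, no Myc 2), which lie on opposite sides of 0 for the p53-response list. More than 50% of genes were higher in 18 lists, and more than 25% were lower in 13.

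Protein folding and turnover genes rose as well. Of 13 subunits of the CCT chaperonin and prefoldin, which fold actin, tubulin and other proteins, 10 rose, among them CCT2 (1.71 ± 0.12), CCT5 (1.55 ± 0.12) and PFDN2 (1.52 ± 0.20). PFDN5, a prefoldin subunit that is known to bind MYC protein, was the 1 that fell (-0.48 ± 0.09). Constitutive proteasome genes rose in 28 of 32 cases (median 0.81), but the count was 13 with the library labelled no Myc 1 left out and 18 with no Myc 2 left out. PSMB5, a catalytic subunit, read 1966, 2605, 2146 and 1839.9 against 847 and 926. High Myc 2 was the highest array of its group in 24 of the 32 proteasome genes. PFDN5 was not called when the library labelled no Myc 1 was left out (adjusted p of up to 0.0504).

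Methylation and polyamine enzymes were among the strongest small groups. In the list of arginine methylation and S-adenosylmethionine 17 of 20 rose and 1 fell, with a median of 1.39. PRMT5, the main symmetric arginine methyltransferase, read 1891, 2231, 1984 and 1946 with high Myc and 448 and 427 with no Myc, and PRMT3, which methylates a ribosomal protein, 633, 733, 829 and 575 against 109.8 and 88.1. SRM and AMD1, of spermidine synthesis, rose by 2.75 ± 0.18 and 2.31 ± 0.18. AHCY, which clears the product of methylation, rose by 2.18 ± 0.13, and MTAP, which salvages the by-product of polyamine synthesis, by 1.80 ± 0.17. The gene that fell, GNMT, a glycine methyltransferase, differed by -0.41 ± 0.11. GNMT was not called when high Myc 1, high Myc 2, high Myc 3, high Myc 4 or the library labelled no Myc 1 was left out (adjusted p of up to 0.218). GNMT differed by -0.37 with quantile normalization repeated and no longer passed (adjusted p = 0.0601). GNMT differed by -0.41 with all 9 arrays in 1 fit and no longer passed (adjusted p = 0.107).

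Chromatin modifiers went both ways, with 30 of 69 higher and 10 lower (median 0.17). These were 43.5% and 14.5%, beside 15.2% and 9.12% of all genes. Among those that rose were SUV39H2, a histone methyltransferase (2.29 ± 0.18), UHRF1, which guides DNA methylation (1.85 ± 0.18), HDAC2 (1.57 ± 0.16) and the histone chaperone NPM3 (2.62 ± 0.13). KAT2B, an acetyltransferase, fell from 284 and 164 with no Myc to 59.9, 67.2, 50.1 and 45.9 with high Myc. CBX7, of a Polycomb complex, fell by 1.15 ± 0.13, KMT2E by 1.09 ± 0.14 and the demethylases KDM2B and KDM5B by 1.01 ± 0.15 and 0.85 ± 0.11.

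DNA repair and checkpoint genes rose in 36 of 56 cases and 2 fell; the number that rose was 22 with the library labelled no Myc 1 left out. CHEK1, the S-phase checkpoint kinase, read 483, 589.6, 646 and 484 with high Myc and 141 and 107 with no Myc, and UNG, the uracil glycosylase, 1257, 1115, 1453 and 1163 against 264 and 293. TIPIN, of the fork protection complex, rose by 2.37 ± 0.27 and PRKDC, the DNA-dependent protein kinase, by 1.60 ± 0.11. ATM, the kinase of the double-strand break response, fell by 1.34 ± 0.28, and ERCC1, of nucleotide excision repair, by 0.68 ± 0.14. The p53-response list had 4 of 28 genes higher and 4 lower, near the share of all genes. TRIAP1 (1.40 ± 0.19), CCNG1 (1.29 ± 0.18) and AEN (0.90 ± 0.14) rose, and CCNG2, a cyclin linked to arrest, fell by 1.72 ± 0.38. The p53-response genes that fell were 0 with the library labelled no Myc 1 left out and 2 with no Myc 2 left out. ATM was not called when the library labelled no Myc 1 was left out (adjusted p of up to 0.125). ERCC1 was not called when the library labelled no Myc 1 or no Myc 2 was left out (adjusted p of up to 0.0741). CCNG2 was not called when high Myc 3, the library labelled no Myc 1 or no Myc 2 was left out (adjusted p of up to 0.153).

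Part of the genes tied to quiescence fell. In that list 12 of 35 fell and 1 rose, with a median of -0.52, and the count that fell was 7 with the library labelled no Myc 1 left out. YPEL5 read 334, 199, 177 and 246 with high Myc and 1599.9 and 1236 with no Myc, and its relatives YPEL3 and YPEL2 fell by 2.18 ± 0.17 and 1.78 ± 0.25. The 3 YPEL genes were below the no Myc arrays on every high Myc array, as were all genes called lower. TXNIP, which restrains glucose uptake, fell by 2.55 ± 0.45. The riser was RBL1, a pocket protein made by dividing cells (0.76 ± 0.11). TXNIP was not called when the library labelled no Myc 1 was left out (adjusted p of up to 0.0775).

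Part of the lipid genes rose, while falls were near the share of all genes. In the fatty acid and phospholipid list 18 of 49 genes rose and 4 fell. These were 36.7% and 8.16%, beside 15.2% and 9.12% of all genes. FASN, the fatty acid synthase, read 1837, 1837, 1869 and 2288 with high Myc and 316 and 327 with no Myc, and ACACA, which supplies it with malonyl-CoA, 984, 837, 1028 and 1018 against 252 and 306. FABP5, which carries fatty acids, rose 13.7-fold. ACADVL, of mitochondrial fatty acid oxidation, fell by 0.88 ± 0.19, but HADH, of the same pathway, rose by 2.08 ± 0.23, and PLIN2, which coats lipid droplets, rose by 1.55 ± 0.21 while PLIN3 fell by 1.04 ± 0.15. The genes that fell were 1 with the library labelled no Myc 1 left out and 2 with no Myc 2 left out, and 9 when quantile normalization was repeated.

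Of 25 eicosanoid genes, 3 rose and 3 fell, shares near the 15.2% and 9.12% of all genes. PLA2G4A, the phospholipase that releases arachidonic acid, was in the lipid list and rose by 2.18 ± 0.13. PTGS1, cyclooxygenase 1, read 287, 193, 290.4 and 277 with high Myc and 1337 and 1329 with no Myc. ALOX5, the enzyme of leukotriene synthesis, fell by 2.66 ± 0.47 and its activating protein ALOX5AP by 1.09 ± 0.12. LTA4H, which acts after it, rose by 1.41 ± 0.23, as did the prostaglandin E synthases PTGES2 (1.05 ± 0.11) and PTGES3 (0.93 ± 0.10). ACADVL was not called when the library labelled no Myc 1 or no Myc 2 was left out (adjusted p of up to 0.116). ALOX5 and LTA4H were not called when the library labelled no Myc 1 was left out (adjusted p of up to 0.0727).

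Part of the innate immune genes fell, among sensors, regulators and effectors. Among Toll-like receptors and other sensors 19 of 44 fell and 1 rose (median -0.52). LY96, the partner of TLR4, read 93.3, 103, 73.5 and 106 with high Myc and 742 and 492 with no Myc, and ZBP1, a sensor of Z-form nucleic acid, 81.9, 68.8, 83.4 and 99.3 against 669.8 and 422. RIGI, a sensor of viral RNA, fell by 2.03 ± 0.20 and TLR1 by 2.47 ± 0.30. The sensor genes that fell were 11 with the library labelled no Myc 1 left out. IRAK1, the kinase after these receptors, was the 1 that rose (1.05 ± 0.10).

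In the list of IRF, STAT and SOCS genes 12 of 38 fell and 3 rose (median -0.36). IRF9, the DNA-binding part of the interferon-activated complex ISGF3, read 722, 622, 395 and 719.6 with high Myc and 3199.7 and 2323 with no Myc. JAK2 fell by 1.71 ± 0.21 and the phosphatase PTPN6 by 1.86 ± 0.28, while PTPN11, its relative, rose by 0.90 ± 0.13 and SOCS7 by 1.13 ± 0.11. The genes that fell were 6 with the library labelled no Myc 1 left out. Antiviral effectors of the TRIM, APOBEC3, GBP and PARP families fell in 32 of 47 cases and 0 rose, with a median of -1.04. PARP14 read 348, 362, 321 and 393 against 1899 and 1583, and PARP15 fell by 2.60 ± 0.38, HERC6 by 1.99 ± 0.32 and TRIM38 by 1.85 ± 0.24. For PARP14 the high Myc arrays were within 1.5-fold of each other. The number of antiviral genes that fell was 22 with the library labelled no Myc 1 left out and 28 with no Myc 2 left out.

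Genes along the B-cell receptor cascade fell, with a count that leaned on single arrays. The receptor chains CD79A and CD79B pass the signal to SYK, which sets off calcium, Ras and NF-kB signals. Of 41 genes, 23 fell and 1, ITPR3, rose (0.51 ± 0.12), with a median of -0.91. SYK read 2511, 1043, 1760.4 and 1932 with high Myc and 6333 and 4813 with no Myc, and CD79B 795, 293, 478 and 632 against 2807 and 1995. As in all called genes the groups did not overlap, and the no Myc arrays were 2-fold or more above most high Myc arrays. CD79A fell by 1.57 ± 0.34 and RASGRP3, an activator of Ras, by 2.20 ± 0.22. The genes that fell were 8 with the library labelled no Myc 1 left out. SYK and CD79B were not called when the library labelled no Myc 1 was left out (adjusted p of up to 0.106). CD79A was not called when the library labelled no Myc 1 or no Myc 2 was left out (adjusted p of up to 0.137). ITPR3 was not called when high Myc 3, high Myc 4, the library labelled no Myc 1 or no Myc 2 was left out (adjusted p of up to 0.124). CD79B differed by -0.02 when a gene was the median of its probe sets and no longer passed (adjusted p = 0.967). ITPR3 differed by 0.30 with quantile normalization repeated and no longer passed (adjusted p = 0.0771).

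Part of a list of Fc receptors, their relatives and inhibitory receptors fell. Of 47 Fc, FCRL and inhibitory receptors, 18 fell and 0 rose, and the count was 8 with the library labelled no Myc 1 left out. FCRL3, an Fc receptor-like inhibitory receptor, read 163, 167, 235 and 99.8 with high Myc and 1248 and 663 with no Myc. FCRL1, FCRL2 and FCRL5 fell by 2.19 ± 0.45, 2.55 ± 0.54 and 2.95 ± 0.61. FCRL1, FCRL2 and FCRL5 were not called when the library labelled no Myc 1 or no Myc 2 was left out (adjusted p of up to 0.129). Lymphoid transcription factors fell in 15 of 50 cases and rose in 3, LEF1 among these. PAX5, which holds B-cell identity, read 1752, 1080.3, 1291 and 1084 against 4114 and 2256. SPIB fell by 1.52 ± 0.34, TCF4 by 1.35 ± 0.22, POU2F2 by 1.55 ± 0.33 and MEF2C by 1.12 ± 0.22. The count of factors that fell was 2 with the library labelled no Myc 1 left out and 9 with no Myc 2 left out. PAX5 was not called when high Myc 3, high Myc 4 or the library labelled no Myc 1 was left out (adjusted p of up to 0.149). SPIB and MEF2C were not called when the library labelled no Myc 1 or no Myc 2 was left out (adjusted p of up to 0.158). TCF4 and POU2F2 were not called when the library labelled no Myc 1 was left out (adjusted p of up to 0.144).

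Small GTPases of lymphocytes and their regulators fell in 17 of 40 cases and rose in 3. RASGRP1 fell by 2.53 ± 0.32, and GIMAP8 and GIMAP2, of a GTPase family of lymphocyte survival, by 2.35 ± 0.22 and 1.60 ± 0.19. RGS16, which damps G protein signals, rose by 1.39 ± 0.20. The GTPase list count was 11 with the library labelled no Myc 1 left out.

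The high Myc arrays differed among themselves in NF-kB genes, with high Myc 2 and 3 above high Myc 1 and 4. Of 31 pathway genes, 12 fell and 1 rose, with a median of -0.99. The mean log2 level of the list, relative to no Myc, was -1.22, -0.32, -0.64 and -1.20 on high Myc 1 to 4, and high Myc 2 was the highest array of its group in 22 of the 31 genes. The genes that fell were 21 with high Myc 2 left out, 4 with the library labelled no Myc 1 left out and 4 with no Myc 2 left out. IKBKB, the kinase that frees NF-kB, read 487, 396, 387 and 399 against 1219 and 1022, and NFKBID fell by 1.39 ± 0.17. NFKBIA, the inhibitor that NF-kB itself induces, read 1909, 4172, 3270.4 and 1929.8 with high Myc and 7306 and 6826 with no Myc, with high Myc 2 and 3 again above high Myc 1 and 4. NFKBIA was not called when the library labelled no Myc 1 or no Myc 2 was left out (adjusted p of up to 0.151). In the chemokine list the mean was 0.16 on high Myc 2 against -0.57, -0.44 and -0.59 on the other high Myc arrays. High Myc 2 was also the lowest of its group in 8 of 13 B-cell markers. In some measures outside these lists, but not in all, high Myc 2 and 3 also differed from high Myc 1 and 4. Their median intensities were 76.1 and 76.0 against 79.6 and 79.5. Of the 2996 higher genes, high Myc 2 and 3 were highest in 1191 and 1199, high Myc 1 and 4 in 270 and 336. Of the 1804 lower genes these counts were 392 and 292 against 732 and 388, so high Myc 2 and 4 were alike there. Over all genes high Myc 3 correlated most with high Myc 4 (0.992) and least with high Myc 2 (0.986) within its group. What sets these arrays apart was not tested. The part of high Myc 2 in the group differences was not tested beyond the fits without it.

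**Figure D5:**
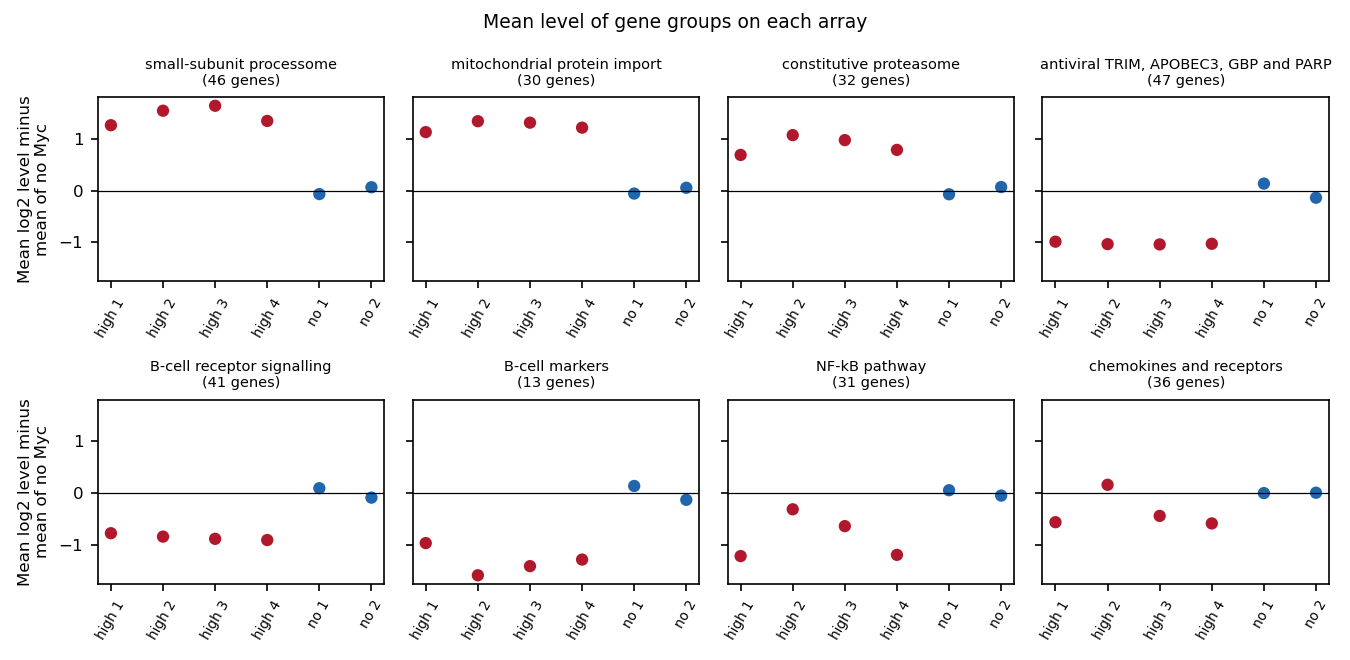
Mean log2 level of 8 gene groups on each of the 6 arrays, minus the mean of the no Myc arrays (vertical axis); red points are high Myc replicates 1 to 4 and blue points the library labelled no Myc 1 and no Myc 2. The processome and import genes sit above 1 on all high Myc arrays, the antiviral genes near -1, and high Myc 2 is the highest of its group for NF-kB genes (-0.32) and chemokines (0.16).

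Part of the genes for signals between immune cells fell. Of the chemokine list 16.7% fell, beside 9.12% of all genes, and its median difference was -0.05. Among chemokines and their receptors 6 of 36 fell and 1 rose, and the count that fell was 2 with the library labelled no Myc 1 left out and 3 with no Myc 2 left out. CCR6, a homing receptor of B cells, fell from 200.2 and 128 with no Myc to 32.0, 27.4, 31.4 and 31.2 with high Myc. Among cytokines and receptors 11 of 55 fell and 1, IL7R, rose (1.76 ± 0.35). The interleukin 10 receptor chains IL10RA and IL10RB fell by 2.10 ± 0.28 and 1.54 ± 0.15, and IL13RA1 by 2.20 ± 0.15. In the TNF superfamilies 9 of 35 fell and 1 rose, and the count that fell was 3 with the library labelled no Myc 1 left out. TNFSF10, the death ligand TRAIL, read 68.7, 36.5, 54.0 and 81.6 against 575 and 298, TNF fell by 1.21 ± 0.15 and TNFRSF14 by 1.34 ± 0.17. The CCR6 fold is not exact, as high Myc read under a mean log2 of 5. IL7R was not called when the library labelled no Myc 1 or no Myc 2 was left out (adjusted p of up to 0.0909).

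Immediate-early genes and feedback regulators of MAP kinase signalling fell in 10 of 36 cases and 0 rose. DUSP5, a phosphatase of ERK, fell by 2.18 ± 0.17, DUSP10 by 1.57 ± 0.25 and IER2 by 1.76 ± 0.27. ZFP36 and ZFP36L1, which mark short-lived mRNAs for decay, fell by 1.84 ± 0.37 and 1.72 ± 0.28. The count was 5 once the library labelled no Myc 1 was left out. Of the 42 lists this one separated the no Myc arrays most, with a mean 0.25 above their average on that library and 0.25 below it on no Myc 2. ZFP36 and ZFP36L1 were not called when the library labelled no Myc 1 was left out (adjusted p of up to 0.0724).

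Traffic, glycosylation and channel genes fell in part. Endosome and vesicle genes fell in 18 of 60 cases and rose in 2, with RAB24 at -1.26 ± 0.12, RAB5B at -1.30 ± 0.20 and EHD1 at -1.12 ± 0.14, and the count that fell was 8 with the library labelled no Myc 1 left out and 11 with no Myc 2 left out. In sialylation and glycosylation 9 of 42 fell and 4 rose. The enzymes that supply activated sialic acid, CMAS and NANS, rose by 1.45 ± 0.20 and 1.09 ± 0.20, while the sialyltransferases ST3GAL5 and ST8SIA4 fell by 1.78 ± 0.11 and 1.76 ± 0.18 and the core fucosyltransferase FUT8 by 1.49 ± 0.11. ST3GAL5 read 264, 259, 256 and 261 against 1002 and 799.7. Ion channels and purinergic receptors fell in 13 of 47 cases and rose in 3. ORAI3, a calcium channel of store-operated entry, fell by 1.72 ± 0.13 and KCNN3 by 1.22 ± 0.20, while the potassium channel KCNQ5 rose by 1.53 ± 0.15. That count of falls was 6 with the library labelled no Myc 1 left out.

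Of 12 oncofetal RNA-binding and HMGA genes, 4 rose and 0 fell, LIN28B and PEG10 above all, and HMGA1, an architectural chromatin protein, by 0.73 ± 0.12. PEG10, an imprinted gene of retrotransposon origin, read 953, 1264, 904 and 1342 against 74.5 and 57.2. In the circadian list 4 of 19 rose and 2 fell, or 21.1% and 10.5% beside 15.2% and 9.12% of all genes, and 4 fell with high Myc 2 left out. CRY1, a repressor of the clock, read 476, 461, 340.4 and 295 with high Myc and 104 and 64.5 with no Myc, and BHLHE40, which also represses clock genes, fell by 1.56 ± 0.21. PER2 rose by 1.54 ± 0.27. PER2 was not called when no Myc 2 was left out (adjusted p of up to 0.0547). HMGA1 differed by 0.73 with all 9 arrays in 1 fit and no longer passed (adjusted p = 0.0989). TERT, the catalytic subunit of telomerase and a known MYC target, read 265, 236, 323 and 341 with high Myc and 150.4 and 177 with no Myc and rose by 0.82 ± 0.17; it was named after its values were seen. TERT was not called when the library labelled no Myc 1 was left out (adjusted p of up to 0.121). TERT differed by 0.82 with all 9 arrays in 1 fit and no longer passed (adjusted p = 0.0796).

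Genes that laboratories use as stable references were not all stable here. Of 22 measured reference genes, 10 rose and 2 fell, with a median of 0.30. GPI read 4137, 4941, 4369 and 4801 with high Myc and 893 and 880.1 with no Myc, or 5.13-fold, and HPRT1 3032, 3247, 3636 and 2920.1 against 916 and 917, or 3.49-fold. SDHA rose by 0.88 ± 0.09. The 2 that fell were CHMP2A, of membrane remodelling by ESCRT-III (-0.87 ± 0.21), and B2M, the light chain of MHC class I (-0.31 ± 0.09). GAPDH, named after its values were seen, rose by 0.42 ± 0.08 (adjusted p = 0.0107). ACTB, likewise named, read 18023, 18969, 18806 and 18170.2 against 20499 and 20045 and differed by -0.13 ± 0.08 (adjusted p = 0.346), which did not pass. GAPDH was not called when no Myc 2 was left out (adjusted p of up to 0.0616). CHMP2A was not called when high Myc 3, high Myc 4, the library labelled no Myc 1 or no Myc 2 was left out (adjusted p of up to 0.161). B2M was not called when any single array was left out (adjusted p of up to 0.189). B2M differed by -0.25 when a gene was the median of its probe sets and no longer passed (adjusted p = 0.0639).

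In the T and NK cell list 1 of 17 genes, CD2, fell (-0.90 ± 0.20), or 5.88% beside 9.12% of all genes. Of 11 plasma cell markers, FKBP11, a prolyl isomerase of the secretory pathway, rose by 2.32 ± 0.20 and XBP1, which drives secretory capacity, by 0.74 ± 0.16. PRDM1, the regulator of plasma cell fate, fell by 0.40 ± 0.10. The plasma cell shares, 18.2% higher and 9.09% lower, were near the 15.2% and 9.12% of all genes. LYZ, lysozyme, read 68.2, 23.3, 29.3 and 33.2 with high Myc and 775 and 333 with no Myc. LYZ and ITGAM were the 2 of the 13 myeloid markers that fell. A second, dimmer probe set of LYZ differed by -0.32. By limma 0 of 7 erythroid and platelet markers and 0 of 11 fibroblast and epithelial markers passed, and 0 and 0 had an unadjusted p under 0.05. CD2 and XBP1 were not called when the library labelled no Myc 1 was left out (adjusted p of up to 0.108). PRDM1 was not called when high Myc 2, high Myc 4, the library labelled no Myc 1 or no Myc 2 was left out (adjusted p of up to 0.148). XBP1 and PRDM1 differed by 0.39 and -0.42 when a gene was the median of its probe sets and no longer passed (adjusted p = 0.0753 and 0.301). XBP1 differed by 0.52 with quantile normalization repeated and no longer passed (adjusted p = 0.0671). PRDM1 differed by -0.40 with a trended and robust prior and no longer passed (adjusted p = 0.0569). PRDM1 differed by -0.40 with all 9 arrays in 1 fit and no longer passed (adjusted p = 0.0803).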

How the data were processed

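RNA of 9 samples of 1 cell line was measured on Affymetrix arrays of 1 colour, which hold 54675 probe sets. The authors deposited an intensity per probe set on a linear scale, summarised by RMA per the submitters' processing notes, which subtracts background, quantile-normalizes the arrays and combines the probes on a log scale; the RMA version is not given in the sources used here. No detection calls were used, so low intensities carry no statement on presence.

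Gene names came from the annotation of the platform: 41097 had 1 gene symbol, 1801 several and 11777 none, and only the first were used, 41043 of them with symbols updated by Entrez identifier. The probe set with the highest mean log2 over the 9 arrays stood for a gene, which gave 19775 genes, 10523 of them with several probe sets.

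Group means were fitted with limma 3.58.1 (R 4.3.3) to log2 intensity of the 6 arrays, with 4 residual degrees of freedom, eBayes without trend, two-sided tests and Benjamini-Hochberg adjustment over all genes; genes were called below an adjusted p of 0.05. In 20 simulated sets of 19775 genes with 200 changed, 66.8% of 2-fold and 94.5% of 4-fold changes were recovered and 4.56% of calls were false. The genes were simulated independently.

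The comparison, the 42 gene lists, the 6 marker lists and the motifs were chosen with earlier results of these data known, so counts over lists are descriptions with no test of their own. A further list is not reported here. Named genes were MYC, MAX and JAG2, the 25 called genes with the largest rise and the 25 with the largest fall among genes whose groups do not overlap, up to 6 called genes per list and direction, and marker genes; others are said to be named after their values were seen. The alternatives were repeated quantile normalization, median centring, a filter at a mean log2 of 5, the median of probe sets, a trended robust prior, array weights, all 9 arrays in 1 fit, the replicate number as a block, each array left out in turn and stricter thresholds. With 1 no Myc array left, it was assumed to vary like the others. The number of arrays limits the precision.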

Additional observations from a re-analysis of the deposited data

Results flagged for a closer look

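Among the named genes, 11 had 1 high Myc array whose gap to its nearest neighbour was above Dixon's 95% critical value for 4 samples. Chance flags about 1 in 20 groups, and 343 genes were named. On high Myc 3 the intensity was highest for FABP5 (6626, against 5850 to 5925 on the other high Myc arrays), SLC25A15 (446, against 355 to 366), TSFM, a mitochondrial elongation factor (1321, against 1169 to 1177), and RASGRP3 (276, against 161 to 173). On high Myc 2 it was lowest for PTGS1 (193, against 277 to 290), ARL11 (49.9, against 134 to 164) and CCR6 (27.4, against 31.2 to 32.0), and highest for GIMAP8 (45.6, against 41.5 on each of the others). On high Myc 1 it was lowest for SLIRP, a mitochondrial RNA-binding protein (4159, against 5033 to 5070), and highest for IKBKB (487, against 387 to 399). On high Myc 4 it was highest for FASN (2288, against 1837 to 1869). In all 11 genes the array stayed on the same side of both no Myc arrays as the rest of its group. That was fixed in advance, since these genes were called and the groups overlapped in no called gene.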

How the results depend on the processing

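Of 4800 genes called, leaving out 1 array gave 2942 to 4648, with the lowest count without the library labelled no Myc 1. The higher genes ranged from 2051 to 2910, the lower from 891 to 1809 and those at least 2-fold from 1773 to 2329. At an adjusted p under 0.01, 3111 were called, 980 of them lower, and at least 2-fold different were 1504 higher and 719 lower. With the replicate block 3430 genes were called, 1174 of them lower. Calls lost under this block, among them those of KCNN3, TERT, CD24 and GAPDH, are not listed gene by gene above. High and no Myc share 2 replicate numbers, and deviations from the group mean correlated at 0.45 for number 1 and 0.07 for number 2. High Myc 4 and no Myc 2 reached 0.29. With 2 no Myc arrays the deviations of 1 mirror those of the other, so these values cannot decide on pairing. The numbers were not taken to pair the arrays in the main fit. Of 350 genes followed, 3 changed sign with the median of probe sets, TFB2M (-0.20), TEF (-0.17) and CSNK1D (0.020), and none did under the other 13 settings. Calls were lost for 91 without the library labelled no Myc 1, 65 without no Myc 2, 45 with the block, 28 with the median of probe sets besides these 3, and for 2 to 24 elsewhere; the causes were not tested. The planned motif share over genes with 1 promoter, and its variant with upstream bases alone, were not run, since such genes are 58.0% of all. The share over all windows was chosen after seeing the data, and it is not given for genes at least 2-fold lower, of which 79.1% had a window. Low intensities limit folds near the floor.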
